A study of Mus musculus with 30 samples.

Results

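Gad1, Pde9a, Mlph, Kcne3, Nrep, Shroom2, Cilp, Tex11, Adgrl3 and Acsm3 are 10 protein-coding mouse genes of a tumour data set that were picked because their counts were much lower under drug than under vehicle, or moved downward under drug. They are 10 of 24552 genes in the count table, and all 10 were among the 15482 genes with enough counts to test. The picking used the drug comparisons themselves, so the differences between drug and vehicle, and between the days of a drug, are given for these genes as a description with no test.

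The tumours were MC38, a mouse colon carcinoma line, grown under the skin of the right flank in female C57BL/6J mice that were 10 weeks old when the cells were injected. Each mouse received 1 intravenous dose of vehicle, of mXTX301 (a masked mouse surrogate of the cytokine interleukin-12) at 0.39 mg/kg, or of an unmasked positive control molecule at 0.03 mg/kg. Tumours were collected on day 4 or day 7 after dosing. Each of the 6 groups of treatment and day held 5 mice, which gave 30 libraries of polyadenylated RNA. All groups share the line, host strain and sex, and the 2 molecules differ in dose as well as in masking.

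The 10 genes come from several pathways. Interleukin-12 acts on T cells and natural killer cells, which then release interferon-gamma, and interferon-gamma acts on tumour and host cells through STAT proteins that bind promoters. Gad1 encodes the enzyme that makes the neurotransmitter GABA from glutamate, and Pde9a encodes a phosphodiesterase that breaks down the messenger cGMP. Mlph encodes melanophilin, which links Rab27a on melanosomes to the motor myosin Va. Kcne3 encodes an accessory subunit of voltage-gated potassium channels that acts with Kcnq1 in colon epithelium, and Adgrl3 encodes latrophilin 3, an adhesion receptor of neurons. Cilp encodes a cartilage matrix protein that binds TGF-beta, and Nrep encodes a small protein linked to wound repair and TGF-beta signalling. Shroom2 encodes an actin-binding protein of epithelial and endothelial cell shape, Tex11 a protein needed for meiotic recombination in male germ cells, and Acsm3 a mitochondrial medium-chain acyl-CoA synthetase.

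RefSeq promoter windows, which run from 250 bases before an annotated start to 50 after it, were used for 7 of the 10 genes. For Gad1, Mlph and Kcne3 the start of the window shown is not the outer end of the annotated gene. Windows of 4 genes are shown: Gad1, Mlph and Cilp because their levels moved together between tumours of the same group, and Kcne3 because it was low under both drugs on both days. Capitals mark a TATAAA match, which in the Gad1 window lies on the opposite strand, and in the Mlph window a CACGTG match, the palindromic E-box. All are on the plus strand of GRCm38.p6, at chr2:70561879-70562178 for Gad1, chr1:90914850-90915149 for Mlph, chr9:65264930-65265229 for Cilp and chr7:100176420-100176719 for Kcne3.
Gad1: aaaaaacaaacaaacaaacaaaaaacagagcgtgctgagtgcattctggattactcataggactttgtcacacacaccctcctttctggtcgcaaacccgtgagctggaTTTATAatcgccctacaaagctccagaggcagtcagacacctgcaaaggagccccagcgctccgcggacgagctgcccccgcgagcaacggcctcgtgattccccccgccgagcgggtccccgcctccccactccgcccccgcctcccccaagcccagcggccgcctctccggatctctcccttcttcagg
Mlph: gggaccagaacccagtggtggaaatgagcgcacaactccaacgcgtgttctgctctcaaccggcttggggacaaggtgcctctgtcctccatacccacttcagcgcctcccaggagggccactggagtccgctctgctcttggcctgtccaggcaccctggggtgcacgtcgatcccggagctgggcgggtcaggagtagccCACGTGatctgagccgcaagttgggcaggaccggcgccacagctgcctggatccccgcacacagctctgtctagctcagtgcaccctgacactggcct
Cilp: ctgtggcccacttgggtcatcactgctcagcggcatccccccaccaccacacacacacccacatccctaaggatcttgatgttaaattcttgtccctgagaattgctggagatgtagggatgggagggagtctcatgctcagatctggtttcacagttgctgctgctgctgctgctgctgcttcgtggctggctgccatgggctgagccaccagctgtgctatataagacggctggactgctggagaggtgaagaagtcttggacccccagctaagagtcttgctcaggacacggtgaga
Kcne3: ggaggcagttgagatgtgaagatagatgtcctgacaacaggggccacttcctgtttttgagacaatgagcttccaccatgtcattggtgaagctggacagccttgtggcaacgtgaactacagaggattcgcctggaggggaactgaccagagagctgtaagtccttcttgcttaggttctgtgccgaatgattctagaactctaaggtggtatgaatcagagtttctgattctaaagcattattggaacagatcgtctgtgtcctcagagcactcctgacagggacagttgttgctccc

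The 4 windows differed in CpG content. The Gad1 window held 21 CpG dinucleotides and the Mlph window 15, while the Cilp and Kcne3 windows held 4 each, against a median of 7 over 32851 windows. Of motifs searched on both strands, the STAT site TTCNNNGAA was in 1 of 13 windows of the 7 genes (a Shroom2 start), against 8.3% of all windows. The interferon-stimulated response element, searched as a pair of GAAA runs 2 bases apart, was in 1 of 13 (an Adgrl3 start), against 3.44% of all windows. TATAAA was in 4 of 13 windows, of 3 genes, against 13.6% of all, and CACGTG was in 1 of 13, the Mlph window shown, against 7.15%. These matches describe letters only.

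By the RefSeq annotation of GRCm38.p6, the genes lie on 8 chromosomes. Gad1 (gene 14415) spans chr2:70561303-70602014, Pde9a (18585) chr17:31386105-31476309, Mlph (171531) chr1:90915024-90951142 and Cilp (214425) chr9:65265180-65280614. Kcne3 (57442) spans chr7:100176507-100184869 and Acsm3 (20216) chr7:119760883-119784896. Adgrl3 (319387) spans chr5:81019085-81827825, Nrep (27528) chr18:33437019-33464365, Shroom2 (110380) chrX:152609509-152770788 and Tex11 (83558) chrX:100838648-101059639. Nrep, Shroom2 and Tex11 are on the minus strand and the other 7 genes on the plus strand.

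Each library held 48.3 M to 85.2 M counts. Levels are given as counts per M total counts (CPM) computed with TMM library factors. The colon transcription factor Cdx2 was at 0 in all 30 libraries and 7 of the other 9 colon markers had medians of 0.0632 to 0.217 CPM, among them the epithelial gene Epcam at 0.123 CPM. The remaining colon markers, the cadherins Cdh1 and Cdh17, had medians of 2.27 and 0.889 CPM and were above 0 in all 30 libraries. Genes of skin epithelium stood high in 12 libraries, 1 each of vehicle and mXTX301 at day 4, 2 of the unmasked control at day 4, 3 of vehicle at day 7, 2 of mXTX301 at day 7 and 3 of the unmasked control at day 7. T cell markers, summed over 9 genes, had medians of 12 CPM in vehicle, 30.4 in mXTX301 and 43.1 in the unmasked control at day 4, and of 8.26, 76.4 and 141 CPM at day 7. In whole tumours, fewer cells of a type and less RNA per cell cannot be told apart.

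Across the 10 genes the differences were mixed at day 4 and downward at day 7. The median log2 fold change, drug minus vehicle, was -0.74 for mXTX301 and -0.76 for the unmasked control at day 4, and -1.97 and -1.90 at day 7. Over all tested genes the same medians were 0.01, -0.01, 0.02 and 0.01. Under mXTX301, 3 of the 10 genes were below an adjusted p of 0.05 and lower at day 4 (background 16% of all genes) and 9 at day 7 (background 22.7%). Under the unmasked control, 4 were at day 4 (background 10.8%) and 9 at day 7 (background 21.8%). These counts come from the comparisons the genes were picked on and carry no weight as a test. The groups did not overlap, with all 5 drug libraries under all 5 vehicle libraries, for 2 genes at day 4 (background 9.33%) and 5 at day 7 (background 14.2%) under mXTX301. Under the unmasked control this held for 2 genes at day 4 (background 6.54%) and 3 at day 7 (background 12.8%).

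Vehicle at day 7 had the highest group median for 8 of the 10 genes, and vehicle at day 4 for Kcne3 and Nrep. When the 6 groups of a gene were ordered by their medians, neighbouring groups overlapped throughout, except Acsm3 in mXTX301 at day 4 and the unmasked control at day 7.

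**Figure D1:**
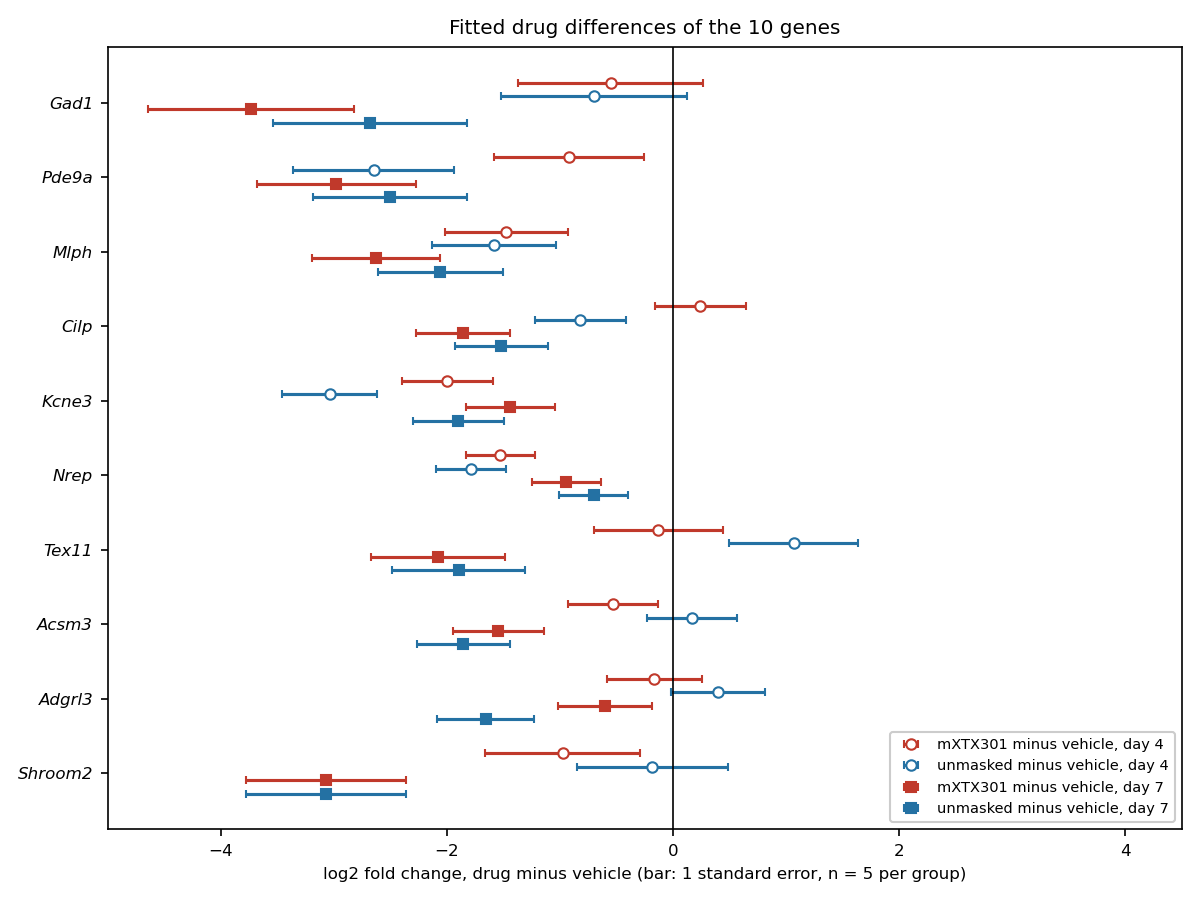
Fitted log2 fold changes, drug minus vehicle, for the 10 genes (bars, 1 standard error; n = 5 libraries per group; circles, day 4; squares, day 7; red, mXTX301; blue, unmasked control). Gad1 under mXTX301 at day 7 lies farthest left at -3.73, and Tex11 under the unmasked control at day 4 lies farthest right at 1.07.

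Kcne3 and Nrep were the genes whose vehicle and drug libraries were separate at day 4 under both molecules. Kcne3 in vehicle at day 4 was at 3.46, 3.82, 4.02, 3.68 and 4.29 CPM in replicates 1 to 5. It was at 0.825, 1.21, 0.819, 0.844 and 1.12 CPM under mXTX301, and at 0.930, 0.156, 0.558, 0.189 and 0.528 CPM under the unmasked control. No drug library came near the vehicle range, and the lowest values were under the unmasked control. The log2 fold change was -2.0 ± 0.40 (SE) for mXTX301 and -3.04 ± 0.42 for the unmasked control, which placed Kcne3 16th and 8th from the most negative of 15482 genes.

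At day 7 Kcne3 was at 3.63, 4.67, 5.10, 2.47 and 3.60 CPM in vehicle, 0.814, 1.10, 0.992, 1.58 and 2.69 CPM under mXTX301, and 0.367, 0.731, 0.974, 1.97 and 1.17 CPM under the unmasked control. The mXTX301 group overlapped vehicle through its replicate 5, and the unmasked group stayed apart. The fitted differences were -1.44 ± 0.39 and -1.90 ± 0.40 (log2). Without the 12 skin-rich libraries, 3 of them vehicle of day 7, the mXTX301 difference was -0.78. With the level of skin genes as a covariate and all 30 libraries kept, it was -1.48. Endothelial markers, summed over 12 genes, were at 189 to 273 CPM in vehicle at day 4, 128 to 206 CPM under mXTX301 and 125 to 159 CPM under the unmasked control. At day 7 their sums overlapped, at 200 to 277, 165 to 478 and 156 to 321 CPM (medians 255, 231 and 254). For correlations, here and below, the level of a marker list was the mean log2 CPM of its genes, not their sum. Kcne3 moved with the level of endothelial markers between tumours of the same group at r = 0.57 (adjusted permutation p = 0.0889 over 130 relations). Without the 2 libraries most extreme in the marker level r was 0.34. The part of endothelial cells in the Kcne3 differences of day 4 and day 7 was not tested.

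Nrep was lower under both drugs at day 4, and by less at day 7. In vehicle it was at 5.99, 5.71, 9.40, 6.07 and 6.76 CPM at day 4 and 5.04, 4.05, 6.76, 5.36 and 9.10 CPM at day 7. At day 4 it was at 4.12, 1.66, 2.71, 1.47 and 1.81 CPM under mXTX301 and 1.30, 1.69, 1.73, 2.79 and 2.31 CPM under the unmasked control. At day 7 it was at 3.59, 2.88, 2.97, 2.71 and 3.59 CPM under mXTX301 and 1.47, 6.47, 3.22, 3.10 and 4.33 CPM under the unmasked control. Only the last group overlapped its vehicle group, through its replicates 2 and 5. The log2 fold changes were -1.53 ± 0.31 and -1.79 ± 0.31 at day 4, and -0.94 ± 0.30 and -0.70 ± 0.30 at day 7, in the order mXTX301, unmasked control.

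Gad1, Pde9a, Mlph and Cilp were high in some vehicle tumours of day 7, above all in replicates 1 and 2. Gad1 in vehicle at day 7 was at 5.13, 14.6, 2.47, 1.40 and 1.12 CPM, against 0.339, 0.215, 0.496, 0.682 and 0.131 CPM under mXTX301. The unmasked control was at 1.39, 0.0913, 1.33, 0.572 and 0.481 CPM. Every mXTX301 library lay under every vehicle library, while 2 unmasked libraries reached into the vehicle range. The log2 fold change was -3.73 ± 0.91 for mXTX301 and -2.68 ± 0.86 for the unmasked control. Without vehicle replicate 2 alone the unmasked value was -1.72. Without vehicle replicates 1 and 2 the values were -2.19 and -1.13, so these 2 tumours set much of the size.

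At day 4 Gad1 spread widely in every group, at 0.443 to 3.09 CPM in vehicle, 0.122 to 2.75 CPM under mXTX301 and 0.0528 to 1.94 CPM under the unmasked control. Its log2 fold changes were -0.55 ± 0.82 and -0.70 ± 0.82, within their errors. Single libraries set these values: without mXTX301 replicate 3 the first was -1.40, and without vehicle replicate 2 they were -0.10 and -0.25. Without unmasked replicate 4 the second was -1.20, and without the skin-rich libraries the first was -1.63 and the second -1.05. With the level of skin genes as a covariate and all 30 libraries kept, they were -0.64 and -0.74. The lowest Gad1 value rests on 3 counts.

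Pde9a repeated this order at day 7. In vehicle it was at 12, 5.61, 2.27, 2.65 and 1.00 CPM, under mXTX301 at 0.644, 0.307, 0.511, 0.725 and 0.804 CPM, and under the unmasked control at 0.267, 0.274, 0.959, 1.01 and 1.64 CPM. The mXTX301 group lay below vehicle throughout and the unmasked group overlapped it. The log2 fold changes were -2.98 ± 0.70 and -2.50 ± 0.68, and -1.75 and -1.28 without vehicle replicates 1 and 2. At day 4 vehicle ranged from 0.312 to 3.40 CPM, mXTX301 from 0.261 to 1.30 CPM and the unmasked control from 0.0837 to 0.486 CPM. The day 4 log2 fold changes were -0.92 ± 0.66 for mXTX301 (-0.32 without vehicle replicate 2) and -2.65 ± 0.71 for the unmasked control.

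Mlph was lower under both drugs on both days. In vehicle it was at 5.46, 6.78, 2.26, 4.47 and 8.41 CPM at day 4 and 11.2, 19.5, 9.30, 9.72 and 4.02 CPM at day 7. Under mXTX301 it was at 0.412, 0.773, 4.49, 3.07 and 1.05 CPM at day 4 and 2.19, 0.567, 1.33, 2.79 and 1.83 CPM at day 7. Under the unmasked control it was at 2.47, 0.622, 2.03, 1.91 and 2.11 CPM at day 4 and 4.41, 0.807, 2.29, 2.42 and 2.95 CPM at day 7. Of the 4 pairs of groups, only mXTX301 and vehicle at day 7 did not overlap. The log2 fold changes were -1.48 ± 0.55 and -1.58 ± 0.55 at day 4 and -2.63 ± 0.57 and -2.06 ± 0.55 at day 7. Of 7 melanocyte markers, the pigment genes Tyr, Tyrp1, Mlana and Dct were at 0 in 24, 22, 18 and 17 libraries and Pmel had a median of 0.375 CPM. Mitf and Kit, which other cell types also express, were at 3.67 to 18 and 2.59 to 11 CPM. The 7 markers summed to medians of 7.71 and 9.59 CPM in vehicle at day 4 and day 7, and were higher under drug, at 13.4 and 20.6 CPM for mXTX301 and 13.8 and 25.1 CPM for the unmasked control. Within groups Mlph and the level of these markers had r = -0.00.

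Cilp reached 334 and 294 CPM in vehicle replicates 1 and 2 of day 7, and 107, 112 and 68.1 CPM in the other vehicle tumours. Under mXTX301 at day 7 it was at 56.5, 31.8, 53.6, 65.9 and 44.9 CPM, just below the vehicle range, and under the unmasked control at 92.1, 35.0, 65.3, 75.2 and 51.7 CPM, overlapping it. On the log2 scale Cilp differed by -1.86 ± 0.41 and -1.52 ± 0.41, and -0.95 and -0.61 without the 2 high vehicle tumours. At day 4 the groups overlapped, at 56.6 to 112 CPM in vehicle, 51.1 to 171 CPM under mXTX301 and 19.7 to 61.0 CPM under the unmasked control. The fitted differences were then 0.24 ± 0.40 and -0.82 ± 0.40. Cilp is known from cartilage, and within groups it had r = -0.14 with cartilage and tendon markers and r = -0.34 with fibroblast markers. Of the 8 cartilage and tendon markers, Chad, Matn3, Tnmd and Acan were at 0 in 24, 18, 14 and 10 libraries. The other markers were above 0 in every library. Their medians were 1.73 CPM for Col2a1, 1.26 for Fmod, 0.296 for Scx and 0.201 for Comp. With part of the list near the floor, its r does not show whether Cilp follows such cells. The detected markers were not tested on their own.

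**Figure D2:**
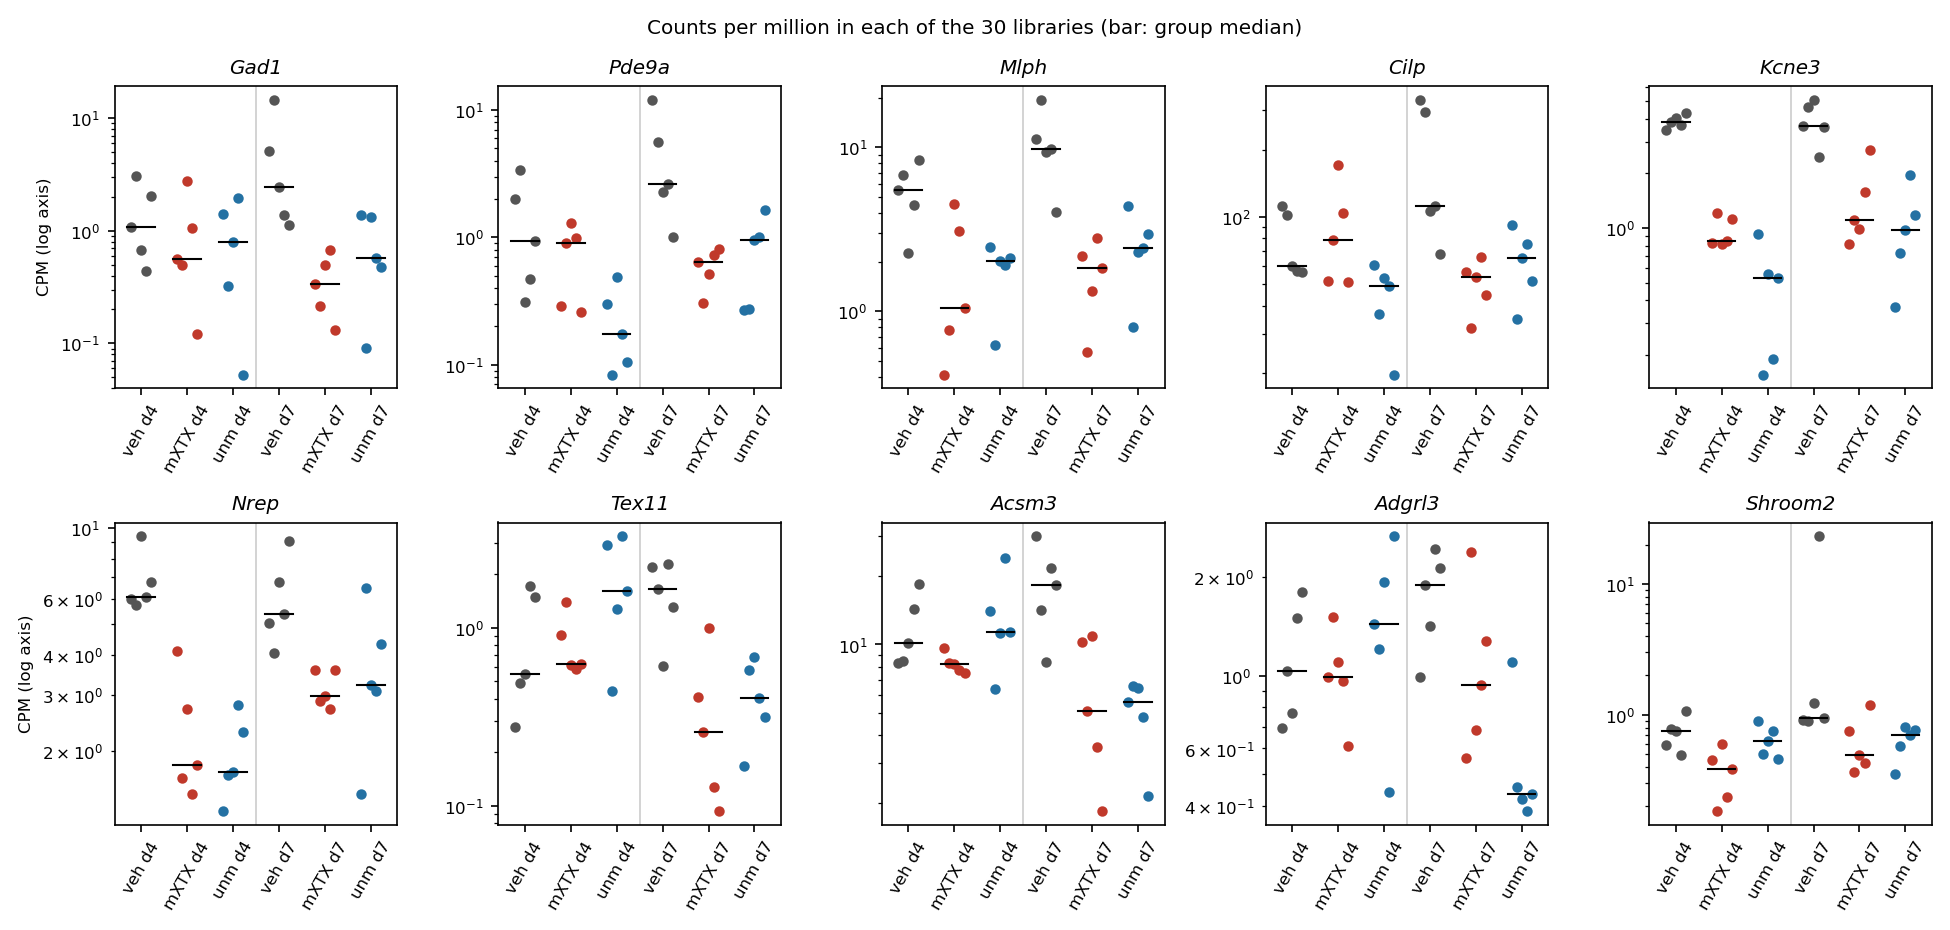
CPM of each gene in each of the 30 libraries on a log axis (points, libraries; bars, group medians; grey, vehicle; red, mXTX301; blue, unmasked control; d4 and d7, day 4 and day 7; 5 libraries per group). Shroom2 shows a single library at 23.1 CPM, and Kcne3 shows tight vehicle groups above the drug groups of day 4.

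Tex11, Acsm3 and Adgrl3 differed from vehicle mainly at day 7. Acsm3 in vehicle at day 7 was at 29.9, 14.1, 8.37, 21.7 and 18.2 CPM, under mXTX301 at 10.2, 5.07, 10.9, 3.54 and 1.85 CPM, and under the unmasked control at 5.56, 6.56, 6.42, 4.79 and 2.15 CPM. The unmasked group lay below every vehicle library and the mXTX301 group overlapped the lowest of them. Acsm3 had log2 fold changes of -1.55 ± 0.41 and -1.86 ± 0.41. At day 4 vehicle spanned 8.32 to 18.5 CPM, mXTX301 7.53 to 9.61 CPM and the unmasked control 6.36 to 24.1 CPM, with differences of -0.53 ± 0.40 and 0.17 ± 0.40.

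Tex11 in vehicle at day 7 was at 2.20, 1.66, 0.606, 2.29 and 1.30 CPM, under mXTX301 at 0.407, 0.261, 0.992, 0.128 and 0.0935 CPM, and under the unmasked control at 0.167, 0.578, 0.690, 0.404 and 0.316 CPM. Vehicle replicate 3 lay inside both drug ranges. Tex11 thus had log2 fold changes of -2.08 ± 0.59 and -1.90 ± 0.59. At day 4 the unmasked control, at 2.90, 0.443, 1.28, 3.27 and 1.62 CPM, held the 2 highest Tex11 libraries of the 30, and its difference from vehicle was 1.07 ± 0.57. For mXTX301 it was -0.13 ± 0.57. Of 7 germ cell markers, Mael was at 0 in all 30 libraries, Sycp1 in 26 and Dazl in 20, while Sycp3, Ddx4 and Stra8 were above 0 in all 30 with medians of 0.193, 0.167 and 0.180 CPM and Tex14 had a median of 2.34 CPM. Within groups Tex11 and the level of these markers had r = -0.28. Leaving out the 12 skin-rich libraries took out 3 vehicle, 2 mXTX301 and 3 unmasked libraries of day 7. The day 7 differences of Tex11 were then -3.76 and -2.98, and that of Acsm3 under mXTX301 was -2.88. With the level of skin genes as a covariate and all 30 libraries kept, they were -2.25, -2.05 and -1.63.

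Adgrl3 differed in the unmasked control at day 7, at 1.10, 0.457, 0.420, 0.387 and 0.436 CPM, where replicate 1 stood above the rest. Vehicle of that day was at 0.989, 1.89, 1.42, 2.43 and 2.13 CPM and mXTX301 at 0.560, 2.38, 0.682, 0.938 and 1.27 CPM, across the vehicle range. The log2 fold changes were -1.66 ± 0.43 for the unmasked control and -0.60 ± 0.42 for mXTX301 (-1.06 without its replicate 2). At day 4 they were 0.40 ± 0.42 and -0.17 ± 0.42.

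The size of the Shroom2 difference at day 7 rests on 1 vehicle library. In vehicle at day 7 it was at 0.917, 0.903, 1.23, 23.1 and 0.945 CPM, under mXTX301 at 0.746, 0.368, 0.496, 0.426 and 1.18 CPM, and under the unmasked control at 0.351, 0.578, 0.810, 0.706 and 0.767 CPM. Replicate 4 was far above the other 29 libraries, none of which passed 1.23 CPM. The log2 fold change was -3.07 ± 0.71 for either drug, and -0.65 for either without that library. Even so, all 5 unmasked libraries lay under the other 4 vehicle libraries, while the mXTX301 group overlapped them through its replicate 5. The ratio of the vehicle median to the drug median was 1.91 for mXTX301 and 1.34 for the unmasked control. That library was not among the skin-rich ones. At day 4 the differences were -0.98 ± 0.69 for mXTX301 and -0.18 ± 0.67 for the unmasked control.

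**Figure D3:**
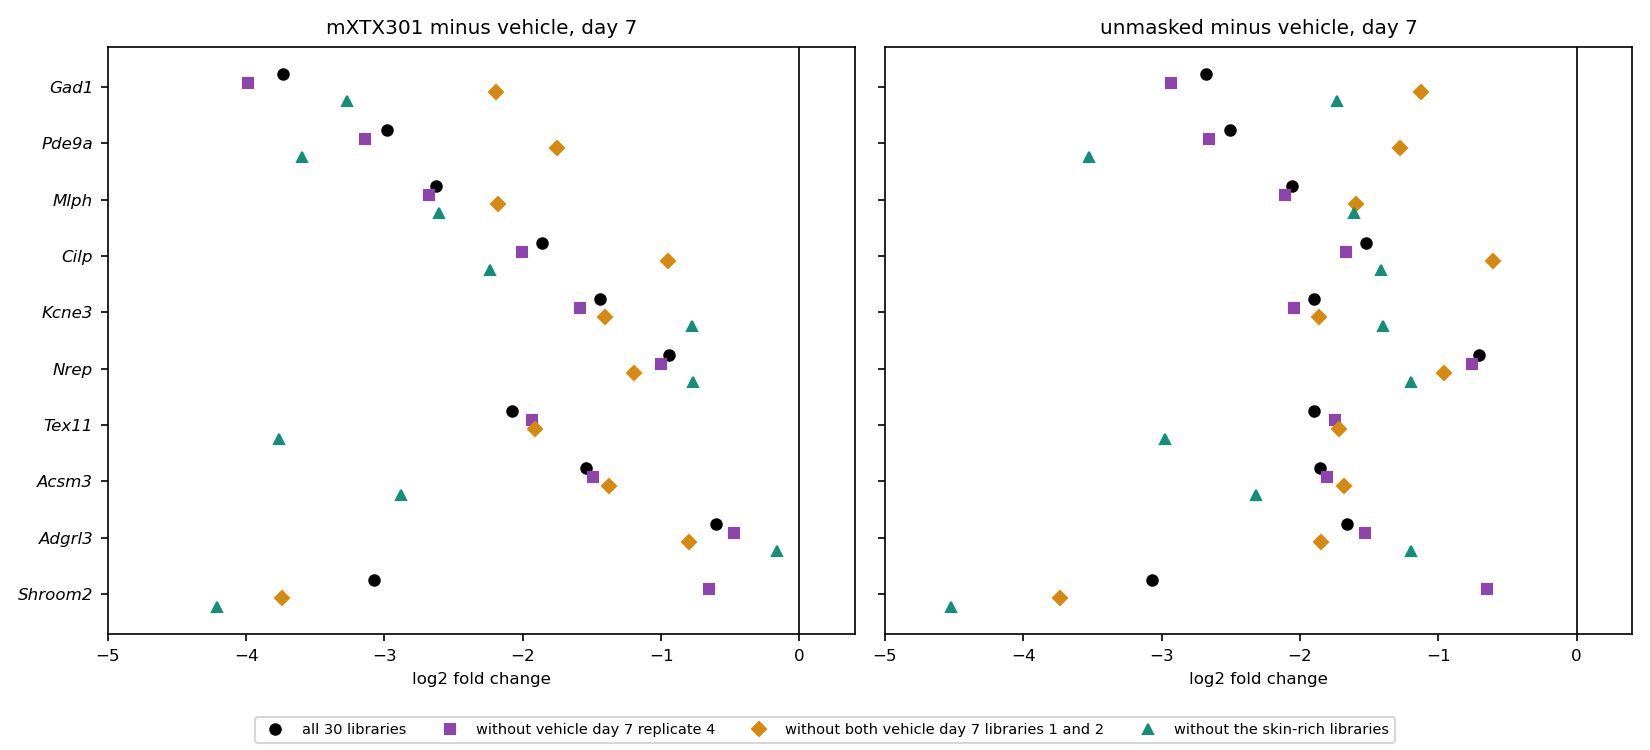
Day 7 log2 fold changes of the 10 genes, drug minus vehicle, with all libraries (black), without vehicle replicate 4 (purple), without vehicle replicates 1 and 2 (orange) and without the 12 skin-rich libraries (green). Shroom2 moves from -3.07 to -0.65 without vehicle replicate 4, and Gad1 under mXTX301 from -3.73 to -2.19 without replicates 1 and 2.

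Between day 4 and day 7 of the same drug, the genes moved in different directions. In the unmasked control Tex11, Adgrl3 and Acsm3 were lower at day 7, by log2 fold changes of -2.13, -1.45 and -1.40, while Kcne3 and Nrep were higher, by 1.15 and 0.92. These 3 and 2 genes were under an adjusted p of 0.05, against a background of 11.5% lower and 14.4% higher. In mXTX301 no gene of the 10 was (background 6.6% lower and 7.88% higher), with Gad1 at -1.43 (-0.60 without replicate 3 of day 4) and Tex11 at -1.12 (-1.89 without replicate 3 of day 7). The picking used changes of this kind, so they too are a description.

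Vehicle libraries took part in the picking, and a high vehicle level at day 7 favoured a gene, so vehicle day 7 minus day 4 is also a description for these genes. In the edgeR quasi-likelihood F test 0 of the 10 genes were under an adjusted p of 0.05, against 6 genes in all (0.0388%). At an unadjusted p under 0.05, 4 of the 10 and 2932 genes in all passed, and DESeq2 called 1 of the 10, Cilp, among 625 genes. Shroom2 had a log2 fold change of 2.88 ± 0.70, which was 0.43 without vehicle replicate 4 of day 7. Gad1 had 1.75 ± 0.83, which was 0.77 without replicate 2 of day 7, Pde9a 1.72 ± 0.66, which was 1.01 without replicate 1, and Cilp 1.24 ± 0.41. Without replicates 1 and 2 together Gad1, Pde9a and Cilp were at 0.19, 0.47 and 0.31. Kcne3 and Nrep had 0.01 ± 0.38 and -0.16 ± 0.30.

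A contrast that the picking does not name set mXTX301 against the unmasked control, at unequal doses, on each day, which makes 2 comparisons of the molecules. It was tested over all 15482 genes with edgeR and shares the drug libraries with the comparisons the picking used. None of the 10 genes and no gene at all (0%) passed at either day, while 2092 genes at day 4 and 898 at day 7 had an unadjusted p under 0.05 and DESeq2 called 24 and 13, with none of the 10 among them. At day 4 Pde9a was higher under mXTX301 by a log2 difference of 1.72 (95% interval 0.28 to 3.17, adjusted p = 0.308), Kcne3 by 1.04 (0.21 to 1.87, adjusted p = 0.302) and Cilp by 1.06 (0.22 to 1.90, adjusted p = 0.301). Tex11 had -1.20 (-2.37 to -0.03, adjusted p = 0.359). At day 7 Adgrl3 had 1.06 (0.19 to 1.93, adjusted p = 0.857) and Gad1 -1.05 (-2.80 to 0.69, adjusted p = 0.900). For the other genes at day 7 the differences ran from -0.57 in Mlph to 0.46 in Kcne3, and their intervals, such as -1.68 to 0.55 in Mlph, do not show that the molecules act alike.

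Within groups, 2 sets of genes moved together from tumour to tumour. The measure was the deviation of log2 CPM (prior count 2) from the group mean over 30 libraries, with a permutation within groups (100000 resamples, smallest p 1e-05) and adjustment over 45 pairs. Of these pairs 8 passed an adjusted p of 0.05, 7 positive and 1 negative. The 7 positive pairs are 15.6% of the 45, and 3.77% of all pairs of tested genes had an r as high as the lowest of them. The negative pair is 2.22% of the 45, against 4.46% of all pairs with an r as low. Gad1 and Cilp had r = 0.82 and rho = 0.82 (adjusted permutation p = 0.00045). Without the 2 libraries whose Gad1 deviation was farthest from the median, r was 0.78. The 10 vehicle libraries gave 0.76 and the 20 drug libraries 0.88. Pde9a and Cilp had r = 0.73 and rho = 0.70 (adjusted permutation p = 0.00075), 0.87 in vehicle and 0.59 under drug. Mlph and Cilp had r = 0.67 and rho = 0.67 (adjusted permutation p = 0.00349). The pairs among Gad1, Pde9a and Mlph had r of 0.58 to 0.61 (adjusted permutation p = 0.00783 to 0.018). A tumour that was high in 1 of the 4 genes thus tended to be high in the others. The picking favoured genes high in vehicle at day 7, where replicates 1 and 2 stood high in these 4 genes. The p-values of these pairs are therefore not free of the picking. Without the vehicle libraries of day 7, r was 0.83 for Gad1 and Cilp, 0.63 for Pde9a and Cilp and 0.66 for Mlph and Cilp. Among Gad1, Pde9a and Mlph it was then 0.54 to 0.58.

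**Figure D4:**
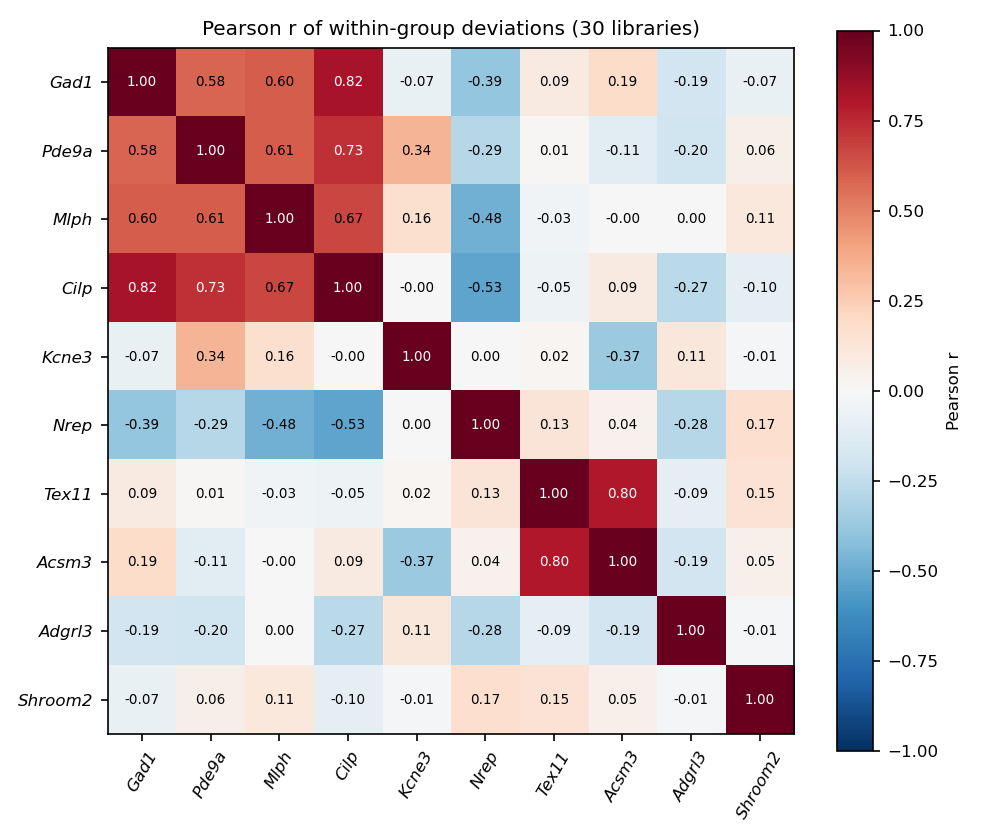
Pearson r of the within-group deviations for the 45 pairs of the 10 genes over 30 libraries, from blue (-1) to red (1). Gad1, Pde9a, Mlph and Cilp form a red block of 0.58 to 0.82, and Tex11 with Acsm3 stands apart at 0.80.

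The other set was Tex11 and Acsm3, with r = 0.80 and rho = 0.81 (adjusted permutation p = 0.00045). Their r was 0.75 without the 2 libraries whose Tex11 deviation was farthest from the median, 0.86 in vehicle and 0.78 under drug. Without the vehicle libraries of day 7, Tex11 and Acsm3 had r = 0.79. No pair between Tex11 or Acsm3 and the first set passed. Nrep and Cilp moved in opposite directions, with r = -0.53 and rho = -0.55 (adjusted permutation p = 0.0382). This was stronger in the 10 vehicle libraries (r = -0.78) than in the 20 drug libraries (-0.45), and -0.46 without the vehicle libraries of day 7. Kcne3, Adgrl3 and Shroom2 passed with no other member.

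**Figure D5:**
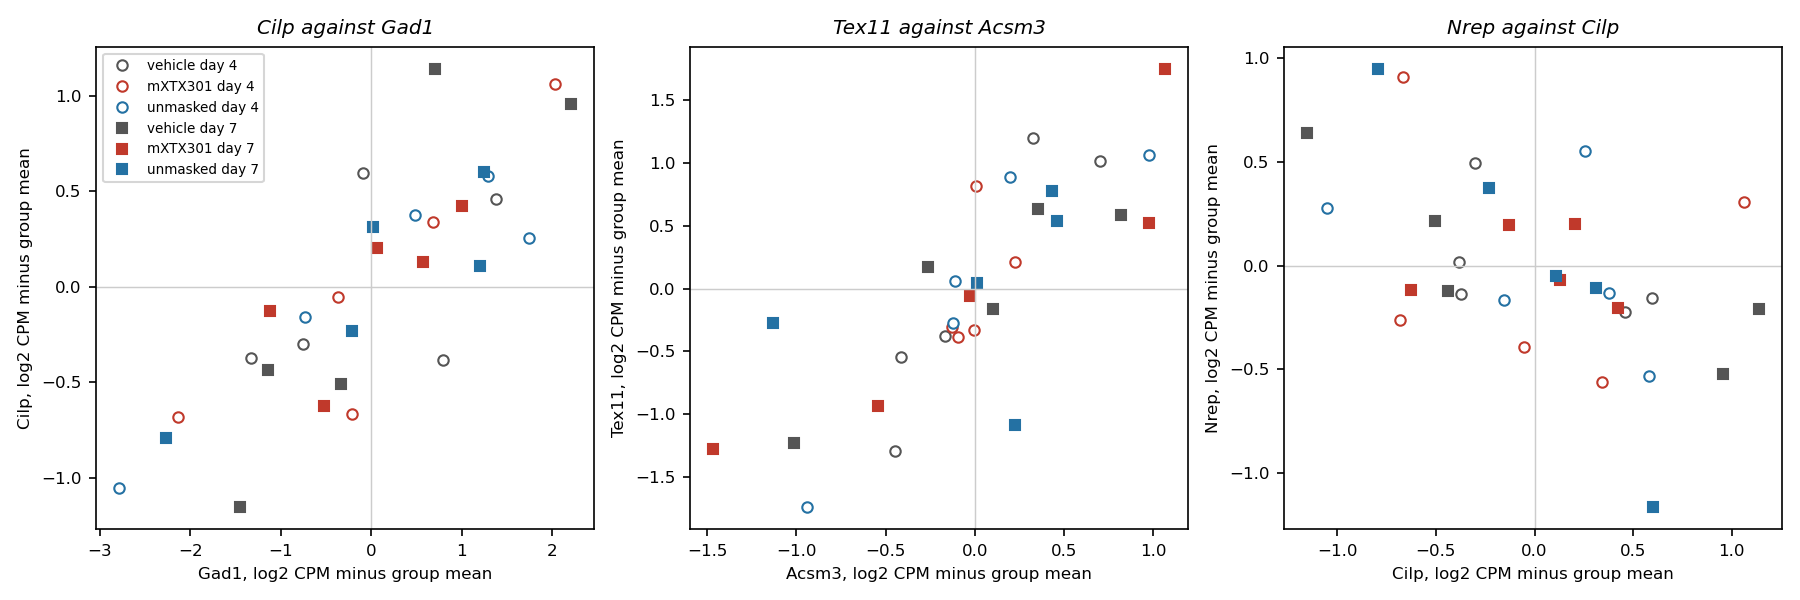
Within-group deviations of log2 CPM, each point 1 of 30 libraries, for 3 pairs of the 10 genes, Gad1 with Cilp (r = 0.82), Tex11 with Acsm3 (r = 0.80) and Nrep with Cilp (r = -0.53). Grey, red and blue mark vehicle, mXTX301 and the unmasked control, circles day 4 and squares day 7. Points of all colours lie along the trends of Gad1 with Cilp and Tex11 with Acsm3. For Nrep with Cilp, r was -0.78 in the 10 vehicle libraries and -0.45 in the 20 drug libraries.

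Marker lists of 13 cell types and states were compared with each gene in the same way, and 0 of 130 relations passed an adjusted p of 0.05 by r in the permutation test. The nearest were Tex11 and Acsm3 with neuron and Schwann cell markers, at r = -0.68 and -0.65 (adjusted permutation p = 0.0578 for both). By rank these 2 relations had an adjusted permutation p of 0.0195. Of the 9 markers in that list, Snap25 and Elavl4 were at 0 in 27 and 21 libraries, and Tubb3 had a median of 178 CPM. The relations are to this list and do not show a relation to nerve cells. Nrep with adipocyte markers had r = 0.54 (adjusted permutation p = 0.0698 by r and 0.0195 by rank), and with melanocyte markers r = 0.71 (0.0783 by r and 0.0289 by rank). With skeletal muscle markers it had r = 0.44 (adjusted permutation p = 0.197 by r and 0.0405 by rank), and with skin epithelium markers r = 0.42 (adjusted permutation p = 0.346 by r and 0.0405 by rank). Nrep also had r = 0.52 with fibroblast, 0.50 with endothelial, 0.48 with cartilage and tendon and 0.46 with colon epithelium markers. Their adjusted permutation p was 0.197 to 0.378 by r and 0.145 to 0.342 by rank. With neuron and Schwann cell markers and cell cycle genes its r was -0.32 and -0.30. Shroom2, with 1 vehicle library far above the rest, had r = 0.22 with endothelial and 0.21 with adipocyte markers. In the 10 vehicle libraries these were -0.43 and -0.29, and in the 20 drug libraries 0.84 and 0.77. The split by treatment was not tested. At day 7 macrophage markers, summed over 9 genes, had medians of 689 CPM in vehicle, 1817 under mXTX301 and 2313 under the unmasked control, and cell cycle genes of 2717, 2086 and 2239 CPM. The part of these shifts in the lower levels of the 10 genes was not tested.

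The genes most like each member in these deviations, among 12644 genes at a mean of 1 CPM or more, were picked as the top 3 and so have no test. For Cilp they were Spib (r = 0.90), Exoc3l4 (0.90) and Stx6 (0.87), and Spib, a transcription factor of B cells and plasmacytoid dendritic cells, also led for Pde9a at 0.86, before Scml4 (0.84) and Colq (0.82). For Gad1 they were Cilp itself, Col6a2 (0.81) and Cd82 (0.80), and for Mlph Psd3 (0.82), Sardh (0.81) and Arsb (0.80). Tex11 had C1qtnf12 (0.83), Dffb (0.82) and Rab11fip1 (0.81), and Acsm3 had Rab11fip1 (0.86), Dffb (0.85) and Yes1 (0.83), and shared 2 of these 3 genes. Nrep had the matrix genes Crispld2 (0.84), Smoc2 (0.84) and Postn (0.83). Kcne3 had Ccr2, a chemokine receptor of monocytes (0.73), Tspan33 (0.71) and Cavin2 (0.69). Adgrl3 had Hoxa11os (0.74), Cyc1 (0.66) and Retsat (0.65), and Shroom2 had Ms4a4d (0.66), Tvp23a (0.64) and Ocln (0.61).

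Genes of the same pathways moved in both directions. These lists hold no member, and their genes were tested over all genes with the edgeR quasi-likelihood F test, in which 25.7% of all genes rose and 22.7% fell under mXTX301 at day 7, and 23.2% and 21.8% under the unmasked control. The median over all genes was 0.02 and 0.01. Among partners of Mlph, 5 of 12 tested genes of Rab27 and granule transport rose and 0 fell under mXTX301 at day 7 (median log2 fold change of the list 0.88), and 6 rose and 0 fell under the unmasked control (median 0.59). Rab27a, the small GTPase that melanophilin binds and that also serves secretion of cytotoxic granules, rose 3.31-fold under mXTX301 (adjusted p = 1.8e-05). Under the unmasked control it rose 3.20-fold (adjusted p = 2.99e-05). Unc13d, which primes cytotoxic granules, rose 1.88-fold (adjusted p = 1.05e-07) under mXTX301. Rab27a also rose at day 4, 2.94-fold under mXTX301 (adjusted p = 0.000202) and 2.99-fold under the unmasked control (adjusted p = 0.000227), while Mlph was lower in all 4 comparisons.

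For Gad1, 8 of 20 genes of GABA synthesis, transport and receptors were tested, of which 4 rose and 2 fell under mXTX301 at day 7 (median 0.57), and none was called at day 4 under either drug. The receptor gene Gabbr1 rose 1.88-fold (adjusted p = 0.000149) and Aldh5a1, a gene of the GABA breakdown pathway, changed by a log2 of -0.52 (adjusted p = 6.04e-05). Of 14 genes of cGMP synthesis, breakdown and kinases, 6 rose and 2 fell in that comparison (median 0.14). The phosphodiesterase Pde2a also fell, by a log2 of -0.78 (adjusted p = 2.07e-06), and Pde1b rose 3.36-fold (adjusted p = 4.46e-06).

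Of 10 listed KCNE and KCNQ genes 4 had enough counts, with 0 called under mXTX301 at day 7 (median 0.30). Kcnq1, the channel that Kcne3 regulates in colon, fell under the unmasked control at day 7 by a log2 of -1.24 (adjusted p = 0.0165). Of 19 genes of TGF-beta signalling and matrix, listed for Nrep and Cilp, 8 rose and 3 fell under mXTX301 at day 7 (median 0.30). The co-receptor Tgfbr3 rose 2.31-fold (adjusted p = 4.1e-07) and the matrix gene Ltbp2 2.35-fold (adjusted p = 0.00154).

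Of 10 tested genes of the Shroom family and apical actomyosin, 1 rose and 2 fell under mXTX301 at day 7 (median 0.01). The non-muscle myosin gene Myh10 rose 2.51-fold (adjusted p = 0.0068). Of 8 tested meiotic genes 3 rose and 2 fell (median 0.11), with the DNA repair gene Nbn at -0.28 (adjusted p = 0.000532). Of 11 tested latrophilins and partners 2 rose and 1 fell (median 0.25), the Adgrl3 partner Flrt2 rising 1.84-fold (adjusted p = 0.000836) and Unc5b at -0.73 (adjusted p = 0.000176). Of 8 tested acyl-CoA synthetases 4 rose and 1 fell (median 0.22). The long-chain synthetase Acsl1 rose 2.17-fold (adjusted p = 9.26e-06), Acss1 rose 2.37-fold (adjusted p = 0.000452), and Acsl3 was at -0.67 (adjusted p = 1.07e-05).

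The chromosome neighbours of the 10 genes were not chosen for their values. Of 20 nearest genes, 14 were tested, and under mXTX301 at day 7 these had a median log2 fold change of -0.18, with 7 called lower and 3 higher by the same test (background 22.7% lower and 25.7% higher). Stard4, a cholesterol transport gene beside Nrep, had -1.07 (adjusted p = 4.82e-06), while Slc37a1, beside Pde9a, had 1.64 (adjusted p = 6.04e-05). Col6a3, beside Mlph, had -0.05 (adjusted p = 0.805).

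Some of the 10 genes overlap others on the opposite strand, and the sources used here do not state whether counting used strand. Gad1 overlaps Gad1os, which held at most 2 counts in total in any group. Acsm3 overlaps Eri2, an exonuclease gene, whose group means stayed between 16.4 and 19.3 CPM while those of Acsm3 ran from 5.10 to 18.5 CPM. Kcne3 lies wholly inside the antisense gene Gm34821, which is not in the count table. Pde9a, Tex11 and Adgrl3 also overlap opposite-strand genes that are not in the count table. Reads of such pairs cannot be told apart without strand.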

How the data were processed

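Whole-number counts per gene for 24557 entries and 30 libraries were deposited by the authors; named tools are STAR 2.7.10a and HTSeq 0.11.1 with the mm10 build, then cutadapt, edgeR 3.34.0 under R 4.1.0, and FastQC 0.11.9, in no stated order, per the submitters' processing notes. The authors also deposited log2 values of 14877 genes, all 10 described genes among them. Log2 CPM recomputed from the counts matched these deposited log2 values within 5e-05 (tolerance 1e-04). Strandedness and filters are not given in the sources used here.

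From the counts, 5 repeated symbols were dropped and filterByExpr kept 15482 genes. With R 4.3.3 and edgeR 4.0.16 (TMM, robust quasi-likelihood, 1 mean for each of 6 groups, 24 residual degrees of freedom, a common BCV of 27.3%), contrasts of group means were tested and adjusted with Benjamini-Hochberg over all tested genes, at 0.05. Standard errors are the log2 fold change divided by the root of F. Total counts of 48.3 M to 85.2 M per library set the counting error. Replicates are separate mice per the series design. The 10 genes, the gene lists and the rules were chosen with earlier results of these data known. Named genes were the 10 genes, up to 3 genes with the smallest p per list and comparison, the 3 most alike genes and the nearest gene on each side, and some genes under this rule are not reported here. Code was tested on simulated counts. Alternatives were DESeq2 1.42.0, other scaling, no filter, a replicate block, a skin covariate, leaving out libraries and leaving out the 12 skin-rich libraries. These 12 were separated from the rest at the largest gap of the mean log2 level of skin genes (at least -0.01 against at most -2.07).

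Same-numbered libraries did not deviate together, so no replicate term was used.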

Additional observations from a re-analysis of the deposited data

Results flagged for a closer look

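In 3 of 60 sets of 5 libraries, 1 library stood far from the other 4 by Dixon's criterion, and chance gives about 1 in 20. Shroom2 was at 23.1 CPM in vehicle replicate 4 of day 7 and at 0.903 to 1.23 CPM in the other 4 libraries. Nrep was at 9.4 CPM in vehicle replicate 3 of day 4 and at 5.71 to 6.76 CPM in the others. Adgrl3 was at 1.1 CPM in replicate 1 of the unmasked control at day 7 and at 0.387 to 0.457 CPM in the others. The Shroom2 library is the 1 of these that moves a drug difference by over 1.5 times.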

How the results depend on the processing

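For the 10 genes, 1451 of 1470 alternative values stayed within the spread between replicates or on the same side of 0.05, 13 moved, 6 newly passed 0.05, and no called value changed sign. Those that moved include Shroom2 at day 7, -0.65 for either drug without vehicle replicate 4. Without vehicle replicates 1 and 2 of day 7, an alternative chosen after seeing the data, Gad1 was at -2.19 and -1.13, Pde9a at -1.75 (mXTX301), and Cilp at -0.95 and -0.61. Without the 12 skin-rich libraries the day 7 minus day 4 difference under mXTX301 was -2.42 for Tex11 and -1.25 for Acsm3. The 6 that newly passed are all of Shroom2 or Cilp in vehicle over time, which the picking favoured, and are not read as tests.

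Over all genes, vehicle day 7 minus day 4 gave 6 calls. It gave 0 with RLE scaling, 0 with no filter, 86 with the replicate block, 187 without the skin-rich libraries, 15 with a skin covariate, 625 with DESeq2, 0 without vehicle replicates 1 and 2, and 0 to 1075 when 1 library was left out, the most without vehicle day 7 replicate 5. Without the skin-rich libraries, where fewer samples are fitted, the unmasked control against vehicle gave 1618 calls at day 4 (reported 3465) and 2415 at day 7 (reported 6973), and its day 7 minus day 4 gave 0 (reported 4009; the call count at an unadjusted p was not computed for this fit). Leaving out 1 library, mXTX301 day 7 minus day 4 gave 533 to 3420 calls (reported 2242), the most without mXTX301 day 4 replicate 3 and the fewest without mXTX301 day 4 replicate 1. For mXTX301 against the unmasked control, the 0 calls became 24 with DESeq2 at day 4, 13 with DESeq2 at day 7, and 0 to 5 at day 7 with 1 library left out, the most without mXTX301 day 7 replicate 3. The cause was not tested. The replicate numbers share only a number: same-numbered pairs had a mean r of 0.0436 and others -0.00442, with 9 of 30 libraries closest to their own number. With the replicate block the other counts of calls stayed within 1.5 times. Members at under 1 CPM rest on few counts, as few as 3 for Gad1.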
